A study of Mus musculus with 6 samples.

Results

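The activity genes described here were Arc, Npas4, Nr4a1, Nr4a2, Nr4a3, Ier2 and Btg2, 7 genes chosen by name from the 14824 genes listed in an RNA-seq table of mouse primary somatosensory (S1) cortex. All 7 were listed. The libraries came from wild-type (WT) mice of the strain labelled C57B6 at postnatal day 21, with 3 libraries of S1 cortex after whisker stimulation (WS) and 3 non-stimulated controls (NS). In the study's model the whiskers on one side of the snout were brushed for 15 minutes a day over 8 days from postnatal day 14, the barrel cortex of the hemisphere on the brushed side, which those whiskers do not drive directly, served as the NS control, and tissue was taken 90 minutes after the last stimulation. Which NS and WS libraries share an animal is not given in the sources used here. The numbers 1 to 3 in the sample labels are called replicate numbers below, and libraries of the same number are called a pair. The study's legends give 3 male mice for the RNA-seq, and the labels tie no library to a mouse.

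These genes are immediate early genes or close relatives of them: their transcription starts within minutes of calcium entry or growth factor signalling, without new protein synthesis, and their mRNAs decay quickly afterwards. In cortical neurons the signal reaches the promoters through kinases that act on CREB, MEF2 and the serum response factor. Arc encodes a synaptic protein that promotes removal of AMPA receptors from the synapse, Npas4 a transcription factor induced by calcium entry that shapes inhibitory synapses, Nr4a1, Nr4a2 and Nr4a3 the orphan nuclear receptors Nur77, Nurr1 and Nor1, Ier2 a nuclear protein of the early growth factor response, and Btg2 an antiproliferative protein that recruits the CCR4-NOT deadenylase.

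The listed genes held between 15660395 and 17276168 counts per library. Counts were scaled to CPM (counts scaled to a common library size) with the TMM library sizes of edgeR, and WS was set against NS on the log2 scale for 13747 genes that passed a filter on low counts, all 7 activity genes among them. The lowest count of any of the 7 was 111 (Ier2 in NS replicate 1), where counting error alone is 9.49% of the value, and the highest was 7765 (Arc in WS replicate 3), where it is 1.13%. The 9 neuronal markers examined (among them Rbfox3, Snap25 and Slc17a7) were all listed, with summed levels of 9113 to 9552 CPM, so the labelled tissue held neuronal RNA in similar amounts in the 6 libraries. In bulk tissue, fewer cells of a type and less RNA per cell cannot be told apart.

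Positions are those of GENCODE M21 on GRCm38. Arc lies on chr15:74669083-74672570 (minus strand), Npas4 on chr19:4984355-4990316 (minus), Nr4a1 on chr15:101254269-101274795 (plus) and Nr4a2 on chr2:57106830-57124003 (minus). Nr4a3 lies on chr4:48045153-48086447 (plus), Ier2 on chr8:84661331-84662852 (minus) and Btg2 on chr1:134075170-134079120 (minus). No annotated gene of either strand overlapped any of the 7. RefSeq promoter windows on GRCm38.p6 matched 5 of the 7, and Arc and Ier2 had no entry. Letters of the cAMP response element (CRE), which CREB binds, were searched in the 250 bases upstream of the RefSeq start. The window of Npas4 lies wholly within annotated exon (250 bases) and that of Nr4a3 overlaps exon by 152 bases, since GENCODE places a start further upstream for both. GENCODE also places a start of Nr4a1 further upstream, so its window lies inside the annotated gene, though outside its exons. The windows that hold no annotated exon are printed here, and their genes stood in different orders across the replicate numbers (Nr4a1 and Btg2 highest in replicate 3, Nr4a2 in replicate 1). Capitals mark TGACGTCA, its core TGACG and the letters TATAAA on either strand.
Nr4a1, chr15:101266596-101266845, plus strand: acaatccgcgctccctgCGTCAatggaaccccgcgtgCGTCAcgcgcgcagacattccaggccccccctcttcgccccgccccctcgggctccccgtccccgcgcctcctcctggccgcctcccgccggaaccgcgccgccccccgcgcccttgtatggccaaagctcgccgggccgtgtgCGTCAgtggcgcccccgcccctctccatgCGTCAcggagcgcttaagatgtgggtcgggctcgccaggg
Nr4a2, chr2:57124004-57124253, minus strand: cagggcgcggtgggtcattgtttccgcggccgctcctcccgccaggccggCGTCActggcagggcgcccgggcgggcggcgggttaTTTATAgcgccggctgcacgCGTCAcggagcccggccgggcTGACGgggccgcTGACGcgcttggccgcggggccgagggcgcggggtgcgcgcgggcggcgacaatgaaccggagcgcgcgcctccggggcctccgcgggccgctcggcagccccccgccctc
Btg2, chr1:134079156-134079405, minus strand: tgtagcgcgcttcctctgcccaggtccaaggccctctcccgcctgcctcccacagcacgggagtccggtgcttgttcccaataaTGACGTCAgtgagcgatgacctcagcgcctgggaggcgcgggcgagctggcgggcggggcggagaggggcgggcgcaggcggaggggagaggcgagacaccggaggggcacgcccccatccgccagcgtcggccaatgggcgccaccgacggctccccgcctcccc
The window of Btg2 held the full element TGACGTCA 166 to 159 bases before the start, and its 2 matches of the core both lie inside that element. The windows of Nr4a1, Nr4a2 and Nr4a3 held the core 4 times each, that of Npas4 2 times, and none of these 4 held the full element. TATAAA was found in Nr4a2 alone of the 5, on the opposite strand, and the serum response element was found in none. Of all 32851 windows of this length in the table, 1.55% held the full element, 17.8% the core, 12.4% TATAAA and 1.47% the serum response element. GC content was 74.4% in the printed window of Nr4a1, 80.0% in that of Nr4a2 and 73.2% in that of Btg2, against a median of 52.4% over all windows. The core is GC-rich, and its share among windows of like GC content was not computed.

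Per kilobase of exon, the levels of the 7 genes stood in the same order in NS and in WS. Arc was the highest, at 45.9 ± 11.8 CPM per kilobase in NS and 101 ± 51.9 in WS (SD, n = 3). Nr4a1 followed at 36.5 ± 22.9 in NS and 35.0 ± 18.6 in WS (n = 3). In NS the ranges of these 2 genes overlapped, so their order there does not exceed the spread between libraries, whereas in WS every Arc value lay above every Nr4a1 value. Nr4a2 stood at 12.1 ± 3.09 in NS, Btg2 at 9.83 ± 4.56, Ier2 at 8.28 ± 4.02, Npas4 at 7.67 ± 3.38 and Nr4a3 at 6.14 ± 0.485 CPM per kilobase (n = 3). Each neighbour from Nr4a2 down to Nr4a3 overlapped the next, in NS and in WS.

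Arc was higher in WS than in NS in all 3 pairs, by about 2-fold, and it alone of the 7 genes had all 3 WS libraries above all 3 NS libraries. In NS its level was 124 CPM in replicate 1, 116 in replicate 2 and 182 in replicate 3, and in WS it was 204, 229 and 490 CPM. The lowest WS library was above the highest NS library, and WS replicate 3 stood far above the other two. The means were 140.3 ± 36.0 CPM in NS and 307.9 ± 159 CPM in WS (SD, n = 3). Within pairs, Arc was 1.65-fold, 1.985-fold and 2.70-fold higher in WS for replicate numbers 1, 2 and 3.
The log2 fold change of Arc was 1.13 with an SE of 0.28 and a 95% interval of 0.52 to 1.75, a 2.19-fold difference (edgeR's quasi-likelihood test, unadjusted p = 0.0018). After adjustment over all 13747 genes this did not pass (Benjamini-Hochberg adjusted p = 0.9998 in edgeR). With the replicate number as a block, a term that removes what the libraries of one number share, the log2 fold change was 1.05 with an interval of 0.82 to 1.28, and it passed the threshold (edgeR quasi-likelihood F test, Benjamini-Hochberg adjusted p = 2.185e-06). The log2 ratios of pair 1, at 0.72, and of pair 3, at 1.43, lie outside the blocked interval. An exact two-sided permutation test over the 6 libraries gave p = 0.1, the smallest that 3 against 3 can give. Without WS replicate 3 the log2 fold change without a block was 0.63 (edgeR quasi-likelihood F test, Benjamini-Hochberg adjusted p = 0.884), and without the whole pair 3 the blocked value was 0.85.

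**Figure D1:**
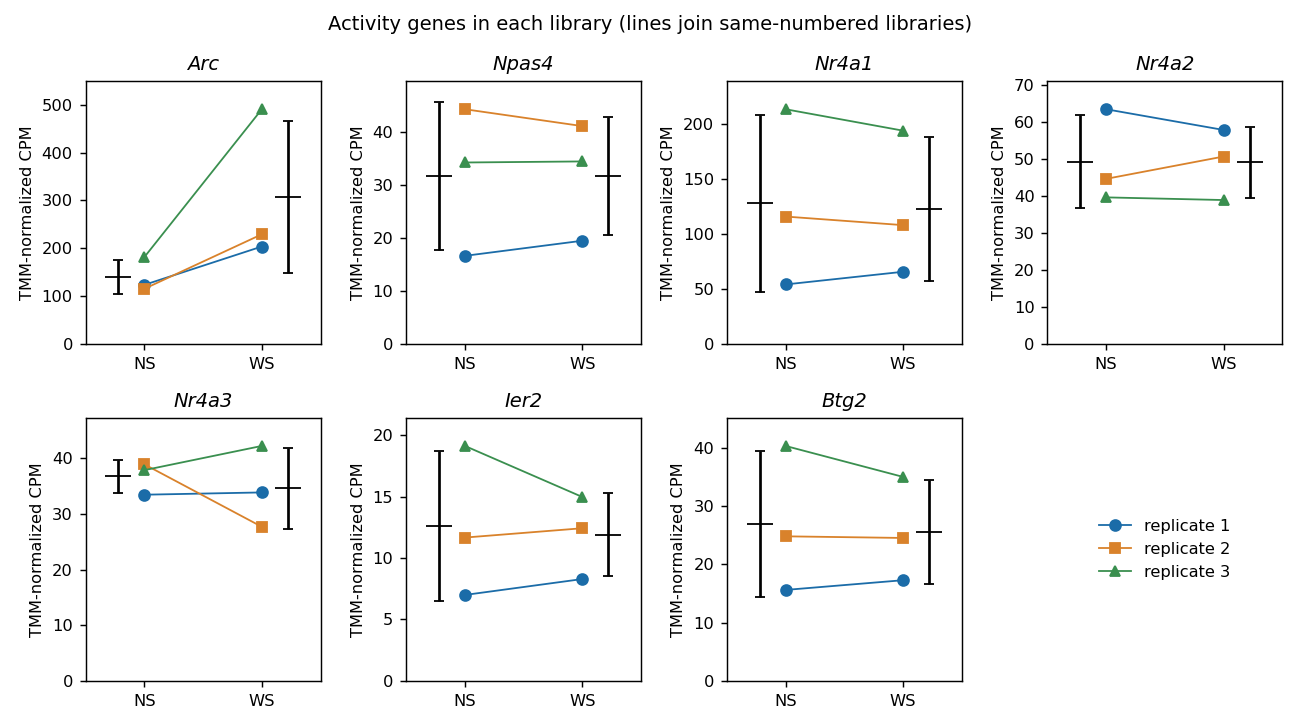
Each panel plots the TMM-normalized CPM of 1 gene (vertical axis, from 0) in the NS and WS libraries. Coloured lines join libraries of the same replicate number and black bars give the group mean ± SD (n = 3). The 3 Arc lines rise from 116 to 182 CPM in NS to 204 to 490 CPM in WS, whereas the NS and WS values of the other 6 genes overlap. The lines of Npas4, Nr4a1, Nr4a2, Ier2 and Btg2 lie apart by replicate number, and those of Nr4a3 cross.

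Npas4 had nearly the same mean in both groups and differed mainly between replicate numbers. Its level was 16.6, 44.3 and 34.2 CPM in NS replicates 1, 2 and 3, and 19.5, 41.1 and 34.4 CPM in the WS replicates. Replicate 1 was lowest and replicate 2 highest in both groups, and the groups overlapped over most of their range. The means were 31.7 ± 13.98 CPM in NS and 31.7 ± 11.1 CPM in WS (SD, n = 3), with a log2 fold change of -0.0037 and a 95% interval of -0.68 to 0.67 (edgeR quasi-likelihood F test, Benjamini-Hochberg adjusted p = 0.9998). With the block the interval narrowed to between -0.19 and 0.25 around 0.03, and the adjusted p was 0.9999 (edgeR quasi-likelihood F test with Benjamini-Hochberg). Within pairs, WS was 1.17-fold, 0.928-fold and 1.01-fold of NS.

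Among the nuclear receptors, Nr4a1 varied most. It was measured at 54.3, 116 and 214 CPM in NS replicates 1, 2 and 3, a 3.93-fold span, and at 65.9, 108 and 194 CPM in the WS replicates, a 2.95-fold span. The order of the replicate numbers was the same in both groups, and each WS library lay near the NS library of its own number. The means were 128 ± 80.4 CPM in NS and 123 ± 65.4 CPM in WS (SD, n = 3). The log2 fold change was -0.06, and its interval of -0.99 to 0.86 without the block runs from a 0.505-fold to a 1.82-fold difference. With the block it was 0.0061, with an interval of -0.21 to 0.22, which leaves out the 2.07-fold estimate of Arc (edgeR quasi-likelihood F test, Benjamini-Hochberg adjusted p = 0.9999).
Nr4a2 took the opposite order. It was highest in replicate 1 and lowest in replicate 3 of both groups, at 63.4, 44.6 and 39.6 CPM in NS and 57.8, 50.7 and 38.9 CPM in WS. NS and WS lay in the same range, with means of 49.2 ± 12.6 and 49.1 ± 9.55 CPM (SD, n = 3) and a log2 fold change of -0.0019 with an interval of -0.38 to 0.38.
By the SD of log2 CPM, Nr4a3 had the smallest spread of the 7 in NS, at 0.116. In WS its SD on that scale was 0.304, and that of Nr4a2 was smaller, at 0.291. Its NS libraries held 33.5, 39.0 and 37.9 CPM and its WS libraries 33.9, 27.7 and 42.3 CPM, with no common order of the replicate numbers. WS replicate 2 was the lowest library and WS replicate 3 the highest, so the NS libraries lay within the WS range. The means were 36.8 ± 2.90 and 34.6 ± 7.30 CPM (SD, n = 3), and the log2 fold change was -0.09 with an interval of -0.39 to 0.22.
The make-up of the family therefore differed between replicate numbers and little between groups of the same number. Nr4a1 made up 42.2%, 65.4% and 79.1% of the summed per-kilobase level of the 3 receptors in NS replicates 1, 2 and 3, and 48.5%, 64.3% and 76.9% in the WS replicates. Per kilobase, the level of Nr4a1 over that of Nr4a2 was 0.992 in NS replicate 1 and 1.32 in WS replicate 1, and it was 6.24 in NS replicate 3 and 5.77 in WS replicate 3.

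Ier2 and Btg2 had profiles much like each other. Ier2 was measured at 6.998, 11.7 and 19.1 CPM in NS replicates 1, 2 and 3, and at 8.29, 12.4 and 14.97 CPM in the WS replicates. Btg2 was measured at 15.6, 24.8 and 40.4 CPM in NS and at 17.3, 24.6 and 35.1 CPM in WS. For both genes replicate 1 was lowest and replicate 3 highest in each group, and the WS libraries lay inside the NS range.
The log2 fold change of Ier2 was -0.09 with a 95% interval of -0.74 to 0.57, and that of Btg2 -0.07 with an interval of -0.73 to 0.58. With the block these intervals were -0.32 to 0.25 for Ier2 and -0.27 to 0.20 for Btg2. The replicate 1 pair was higher in WS and the replicate 3 pair lower in WS for both, at 1.19-fold and 0.782-fold for Ier2 and 1.11-fold and 0.868-fold for Btg2.

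Over the 7 genes, 0 were called higher in WS, where a call needed both an adjusted p below 0.05 and a log2 fold change over 1 (edgeR quasi-likelihood F test with Benjamini-Hochberg), beside 0.0291% of all genes tested. DESeq2 also called 0 of the 7. With the block Arc was called, 1 of 7, beside 0.0436% of all genes. At an unadjusted p under 0.05 Arc was again the only one, beside 1.19% of all genes. All 3 WS libraries lay above all 3 NS libraries in Arc alone, beside 3.11% of all genes, and WS was the higher library in 3 of 3 pairs in Arc alone, beside 9.82% of all genes. The median log2 fold change of all genes tested was 0.0074. With the block, the 95% intervals of the other 6 genes all lay between -0.34 and 0.25 on the log2 scale, and that of Arc lay wholly above them.

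**Figure D2:**
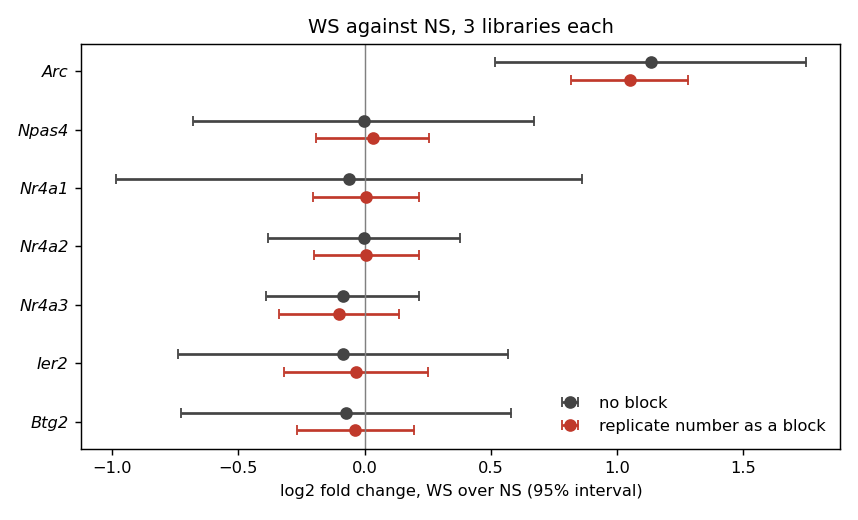
Points give the log2 fold change of WS over NS (horizontal axis) for each gene, with 95% intervals, in grey without a block and in red with the replicate number as a block (3 libraries a group). Arc stands at 1.13 and 1.05, above 0 in both fits, and the intervals of the other 6 genes include 0 in both fits and shorten most for Nr4a1, from -0.99 to 0.86 down to -0.21 to 0.22.

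Most of these genes differed between replicate numbers in the same way in NS and in WS. This pattern was seen in the values first and the test was chosen afterwards. In an F test of the replicate number term, which asks whether libraries 1, 2 and 3 differ after the group is taken into account, 6 of the 7 genes passed an adjusted p of 0.05 (edgeR quasi-likelihood F test with Benjamini-Hochberg), beside 1.15% of all genes. Nr4a1 was 3.39-fold higher in replicate 3 than in replicate 1, with an interval of 2.82 to 4.08 (edgeR quasi-likelihood F test, Benjamini-Hochberg adjusted p = 2.11e-09). Btg2 was 2.29-fold and Ier2 2.22-fold higher in replicate 3, and Npas4, which peaked in replicate 2, was 1.90-fold higher in replicate 3 than in replicate 1. Arc was 1.89-fold higher in replicate 3, with an interval of 1.56 to 2.30, so it differed both by replicate number and, with the block, by stimulation. Nr4a2 was 1.54-fold higher in replicate 1 than in replicate 3 (edgeR quasi-likelihood F test, Benjamini-Hochberg adjusted p = 0.0158). Nr4a3 did not pass, with replicate 3 at 1.19-fold of replicate 1 and an interval of 0.974 to 1.46 (edgeR quasi-likelihood F test, Benjamini-Hochberg adjusted p = 0.823).
The 3 replicate numbers stood in the same order in NS and in WS in 5 of the 7 genes (Npas4, Nr4a1, Nr4a2, Ier2 and Btg2), beside 17.0% of all genes. In Arc replicate 3 was highest in both groups, and replicates 1 and 2 changed places. The labels do not say whether a number marks an animal, a litter, a dissection or a processing day, and these cannot be told apart.

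**Figure D3:**
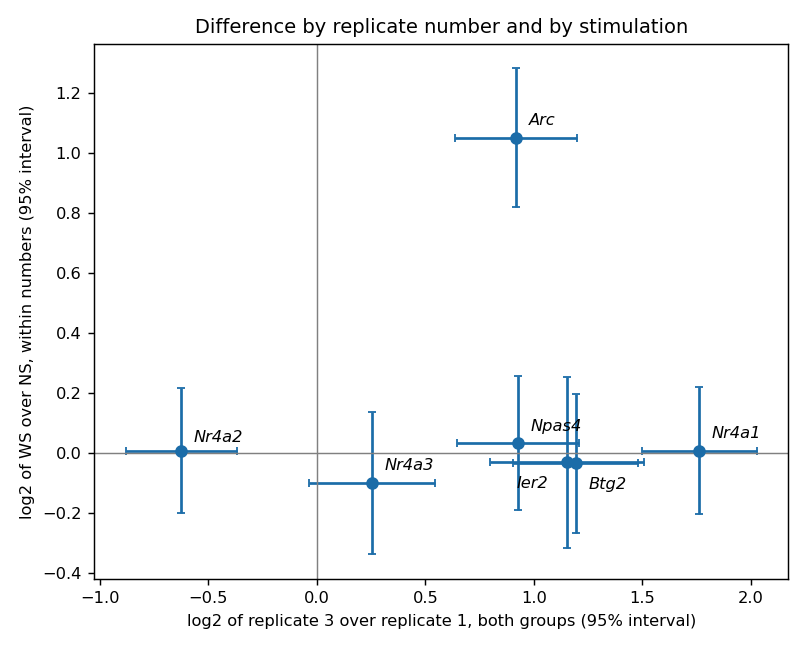
Each point is 1 gene, with the log2 ratio of replicate 3 over replicate 1 across both groups on the horizontal axis and the log2 ratio of WS over NS within replicate numbers on the vertical axis. Bars are 95% intervals. Arc alone lies away from 0 vertically, at 1.05, and 5 genes lie right of 0 horizontally by 0.92 to 1.76, with intervals clear of 0. Nr4a2 lies on the left at -0.63, and the interval of Nr4a3 includes 0 in both directions.

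Within each group the members spread more widely than most genes. Among the 10876 genes averaging 100 counts or more, Nr4a1 had an SD of log2 CPM of 0.99 between the 3 NS libraries, larger than that of all but 0.0736% of these genes. The SD in NS was 0.73 for Npas4, 0.73 for Ier2 and 0.68 for Btg2, each larger than that of all but 0.20% to 0.25% of the genes. In WS the SD of Arc was 0.69, and 0.294% of the genes had a larger one. Nr4a3 was ordinary in NS, where 33.2% of the genes had a larger SD than its 0.12.

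The genes with at least 100 counts whose profile over the 6 libraries was most like that of a member were found by the root-mean-square difference of centred log2 CPM. For Ier2 they were Junb (0.048), Btg2 (0.077) and Dusp5 (0.151), and for Btg2 they were Ier2 (0.077), Junb (0.082) and Csrnp1 (0.104). Junb encodes an AP-1 subunit and Dusp5 a phosphatase that inactivates ERK. For Nr4a1 they were Cyr61 (0.117), Dusp1 (0.147) and Trib1 (0.18), of which Dusp1 is a MAP kinase phosphatase of the early response. For Npas4 they were Morf4l1b (0.168), Wwox (0.20) and Elovl7 (0.21), and for Arc they were Pecam1 (0.282), Fos (0.296) and Slc16a7 (0.342). The profile of Arc was thus matched less closely than those of Ier2, Btg2, Nr4a1 and Npas4. Nr4a2 and Nr4a3 spanned too little over the libraries for this measure.

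A list of 46 symbols of other immediate early genes, of which 42 were tested, showed how far the pattern of the 7 extended. In the WS against NS comparison 0 of the 42 were called higher or lower (edgeR quasi-likelihood F test with Benjamini-Hochberg). At an unadjusted p under 0.05, 2 were higher and 0 lower. The median log2 fold change of the list was -0.025, beside 0.0074 for all genes, with 18 higher and 24 lower. The 2 were Fos, the AP-1 subunit, and Egr4, a zinc finger transcription factor. Fos was measured at 18.4, 15 and 14.8 CPM in NS and 25.1, 28.4 and 45.5 CPM in WS, and Egr4 at 56.0, 37.8 and 31.2 CPM in NS and 76.7, 96.9 and 107 CPM in WS. In 3 of the 42 genes every WS library was above every NS library, as for Arc, beside 3.11% of all genes. In 1 of the 42 every WS library was below every NS library. Fos and Egr4 were 2 of the 3. Their log2 fold changes were 1.03 (SE 0.20) and 1.17 (SE 0.18), and the adjusted p was 0.416 for Fos and 0.101 for Egr4 (edgeR quasi-likelihood F test with Benjamini-Hochberg). Under the block both passed the adjusted p in the edgeR quasi-likelihood F test, with a Benjamini-Hochberg adjusted p = 0.000591 for Fos and adjusted p = 2.966e-05 for Egr4. The blocked log2 fold change was 1.19 for Egr4 and 0.997 for Fos, so Egr4 alone of the 42 was called with the block. The lowest log2 fold change of the list was that of Homer1, which encodes a postsynaptic scaffold protein, at -0.16. The counts are per gene, so the transcripts of Homer1 cannot be told apart here.
By replicate number, 11 of the 42 genes (26.2%) passed an adjusted p of 0.05 (edgeR quasi-likelihood F test with Benjamini-Hochberg). They were Junb, Egr2, Dusp1, Dusp5, Dusp6, Sik1, Trib1, Csrnp1, Klf2, Cyr61 and Arl4d, named after their values were seen, and all 11 were higher in replicate 3 than in replicate 1, by 0.67 (Klf2) to 1.63 (Cyr61) on the log2 scale. Of the 42, 21 were highest in replicate 3 of both groups, beside 11.3% of all genes, and 19 were lowest in replicate 1 of both groups, beside 14.8% of all genes.
The other pathway lists held no gene that passed either test. The list of upstream regulators (CREB and its coactivators, SRF, MEF2 factors and their kinases) held 26 symbols. As in the other pathway lists, a gene could stand under both an older and a newer symbol. Of the 26, 23 were tested, 0 passed an unadjusted p under 0.05 between WS and NS in edgeR's quasi-likelihood test, and 0 passed by replicate number. Their log2 fold changes ran from -0.19 (Rps6ka5, a CREB kinase) to 0.17 (Elk4, a partner of SRF), with a median of -0.027. Of 33 symbols of partners and relatives of the 7 genes, such as the Npas4 partner Arnt2 and the nuclear receptor partners Rxra and Rxrg, 31 were tested, again with 0 in either test. Of these 31, 8 were lowest in replicate 1 of both groups, beside 14.8% of all genes. Of the same 31, 3 were highest in replicate 3 of both groups, beside 11.3% of all genes. Their log2 fold changes ran from -0.14 (Wasf1, an actin regulator that binds Arc) to 0.34 (Rxrg), with a median of 0.025.

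**Figure D4:**
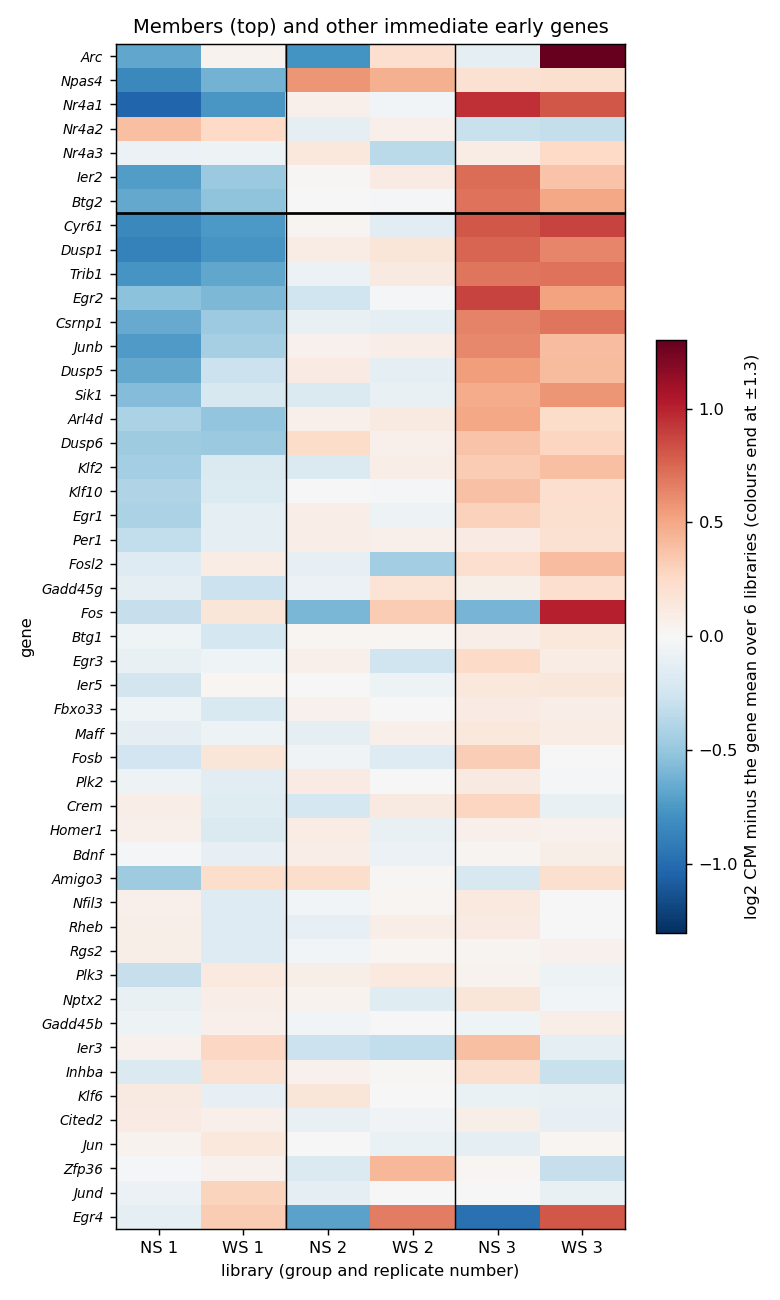
Rows are the 7 activity genes (above the black line) and 42 other immediate early genes, columns are the 6 libraries ordered by replicate number, and colour gives log2 CPM minus the gene's mean over the libraries, ending at ±1.3. Nr4a1, Ier2, Btg2 and the upper rows of the list, among them Cyr61, Dusp1 and Trib1, are blue in both replicate 1 columns and red in both replicate 3 columns, and Arc is darkest red in WS replicate 3.

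Markers of other cell types also differed between replicate numbers. The 9 tested choroid plexus markers were all lowest in replicate 1 of both groups, and all 9 passed the replicate number test, with summed levels of 495, 705.6 and 887.5 CPM in NS replicates 1, 2 and 3 and of 304.3, 1012 and 647.9 CPM in the WS replicates. In NS, all 9 were highest in replicate 3, as were Nr4a1, Ier2 and Btg2, whereas Npas4 was highest in replicate 2. In WS, 8 of the 9 were highest in replicate 2, as was Npas4, and Otx2 alone was highest in replicate 3, as were Nr4a1, Ier2 and Btg2. Of the 9 oligodendrocyte markers, 8 were lowest in replicate 1 of both groups and 2 passed the replicate number test, with summed levels of 8504, 12210 and 11530 CPM in NS and 10140, 13350 and 13490 CPM in WS. Of the 10 tested striatal markers, 5 passed, with sums of 362.6, 490.8 and 503.6 CPM in NS and 367.4, 754.1 and 354.6 CPM in WS. Among the other lists, 1 of 11 cortical layer, 1 of 5 hippocampal and 2 of 5 blood markers passed, and 0 of the neuronal, astrocyte, microglia, endothelial and pericyte markers did. The part of these markers, and of RNA quality, for which no value per library is given in the sources used here, in the differences of the 7 genes was not tested. Between WS and NS none of the marker lists held a called gene, and at an unadjusted p under 0.05 there was 1 hippocampal and 1 oligodendrocyte marker (edgeR's quasi-likelihood test). The log2 fold change was above 0 in 9 of 9 astrocyte, 9 of 9 oligodendrocyte, 12 of 12 endothelial and 10 of 10 striatal markers, with list medians of 0.129, 0.198, 0.083 and 0.146. It was also above 0 in 5 of 5 blood markers (median 0.025), 7 of 8 microglia, 6 of 8 pericyte, 7 of 11 cortical layer, 3 of 5 hippocampal, 5 of 9 neuronal and 3 of 9 choroid plexus markers, beside 53% of all genes tested. WS replicate 3, the library with the highest Arc level, also had the highest summed level of astrocyte (5702 CPM), oligodendrocyte (13490 CPM), endothelial (360.2 CPM) and pericyte (318.6 CPM) markers of the 6 libraries. The part of these markers in the Arc difference was not tested.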

How the data were processed

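Bulk RNA-seq was performed on total RNA of S1 cortex on a DNBseq instrument. The authors discarded reads from rRNA or of low quality, aligned with HISAT2, and mm10 is the genome build in the submitters' processing notes. The counting tool and its strand setting are not given in the sources used here. For each gene the authors deposited an estimated count averaged over the 6 libraries, along with its SD. The authors also deposited a score per library (a z-score), made by subtracting that average from the library's count and dividing by the SD. Columns with the authors' own comparisons (fold change, p-value and FDR) were not used. The column of WS replicate 3 has an added letter in its name and was assigned because the deposited WS mean includes it.

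Counts per library were recovered from these (average + z-score × SD) and rounded to whole numbers. For the 7 genes the rounding of the deposited values left at most 1.09 counts of uncertainty. Of the values of 13418 genes with under 0.1 count of uncertainty, 88.5% came out whole within that uncertainty. Genes were kept by filterByExpr, normalized by TMM and tested with the quasi-likelihood F test of edgeR 4.0.16 (R 4.3.3) with Benjamini-Hochberg adjustment over 13747 genes. Calls needed an adjusted p below 0.05 and a log2 fold change beyond 1 in either direction, the thresholds of the study's methods. The scripts were tested on simulated data. Single genes were also compared by an exact permutation test over libraries on log2 CPM. DESeq2 1.42.0 was an alternative, as were other normalizations and filters, the replicate block, and each library left out. Tables were handled in Python 3.11.15.

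Replicate numbers were taken from the titles in the labels. Libraries of the same number deviated together from their group means, with Pearson's r of 0.34, 0.23 and 0.12 for pairs 1, 2 and 3 across 13747 genes (genes do not serve as independent replicates). Over the 10876 genes with at least 100 counts on average the values were 0.38, 0.35 and 0.068, so the pairing of the third number is weak. The numbers were treated as pairing the libraries, and the blocked value is printed where it changed a call. The leading fit has no block, as the study's statistics are unpaired.

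The 7 genes, the lists and the tests were chosen with earlier results of these data known, and the replicate number test, and leaving out whole pairs, were chosen after the values were seen. By rule, the named genes are the 7, pathway list genes at an unadjusted p under 0.05, the highest and lowest of each pathway list, and the 3 genes nearest in profile to each gene spanning more than 1 in log2 CPM. Genes named outside this rule are the 11 of the early gene list that passed the replicate number test, Otx2 (both chosen after their values were seen), and Rbfox3, Snap25, Slc17a7, Arnt2 and Rxra as examples of what a list holds. Counting error is the only error that depth gives for a single library. The reads, imaging and RT-qPCR were not analysed here.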

Additional observations from a re-analysis of the deposited data

How the results depend on the processing

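The direction of Arc held in all 16 alternatives, and its adjusted p passed 0.05 in 5 of them, all with the replicate number as a block. With the block, its log2 fold change was 1.05 in edgeR (adjusted p = 2.185e-06) and 1.05 in DESeq2 (adjusted p = 3.138e-13). Leaving out pair 1, 2 or 3 from that fit, it was 1.22, 1.07 or 0.85 (edgeR's quasi-likelihood test, adjusted p = 4.192e-21, 1.374e-08 and 1.136e-12). These p-values were lower than with all the libraries, so they are not read as stronger evidence. They rest largely on a spread estimated over all genes and do not measure how Arc varied between pairs. Leaving out 1 library without the block, the log2 fold change of Arc ranged from 0.63 to 1.36 (edgeR's quasi-likelihood test, adjusted p between 0.361 and 1). The members called were 1 (Arc) with the block in edgeR, with the block in DESeq2, and with the block without pair 1 or pair 2, and 0 with the block without pair 3, where the log2 fold change fell under 1. The block changed no other member's call. The adjusted p of the other 6 genes never passed 0.05 in the 16 alternatives. With 1 library left out, their log2 fold changes ranged from -0.31 to 0.31 for Npas4, -0.56 to 0.53 for Nr4a1 and -0.14 to 0.22 for Nr4a2. The ranges were -0.26 to 0.04 for Nr4a3, -0.37 to 0.35 for Ier2 and -0.37 to 0.34 for Btg2.

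Over all genes, 4 were called higher and 0 lower without the block. With 1 library left out the higher calls ranged from 0 (without NS replicate 2 or NS replicate 3) to 6 and the lower calls from 0 to 1. With the block, 16 were higher without pair 1, 12 higher and 10 lower without pair 2, and 8 higher and 2 lower without pair 3. At an unadjusted p under 0.05 there were 119 higher and 45 lower. By replicate number, 158 genes passed in edgeR and 74 in DESeq2's likelihood ratio test, and 6 of the 7 members passed in each of these 2 and with the other normalization or no filter. The cause of these differences was not tested. Without the block, the 95% interval was widest for Nr4a1 (-0.99 to 0.86) and narrower for Nr4a2 (-0.38 to 0.38) and Nr4a3 (-0.39 to 0.22).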

Other observations

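The level of Arc was also set against that of other early response genes within each library. The CPM of Arc over that of Nr4a1 was 2.28, 0.996 and 0.849 in NS replicates 1, 2 and 3, and 3.10, 2.12 and 2.53 in the WS replicates, so the lowest WS ratio was below the NS ratio of replicate 1 and above the other two. Arc over Btg2 was 7.92, 4.65 and 4.50 in NS and 11.8, 9.34 and 14 in WS, and Arc over Ier2 was 17.7, 9.90 and 9.49 in NS and 24.6, 18.5 and 32.8 in WS, both without overlap of the groups. Arc over Npas4 was 7.44, 2.61 and 5.30 in NS and 10.5, 5.59 and 14.2 in WS, with WS replicate 2 below NS replicate 1. These 4 ratios were higher in WS in each of the 3 pairs. Against Fos and Egr4, which like Arc had every WS library above every NS library, the groups overlapped: Arc over Fos was 6.72, 7.68 and 12.2 in NS and 8.14, 8.08 and 10.8 in WS, and Arc over Egr4 was 2.21, 3.06 and 5.81 in NS and 2.66, 2.37 and 4.58 in WS. All these ratios share the values of Arc and are not independent of each other.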
